A study of Mus musculus with 2 samples.

Results

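The oxidative phosphorylation genes described here were those whose symbol starts with Nduf, Sdh (a to d), Uqcr, Cox4 to Cox8 or Atp5, that were read by a probe set named to that gene alone and that lie off chromosome 14. The rule used gene names and no measured value, though the set was chosen with earlier results of these data known. It found 77 of the 10313 genes named on the arrays. They were 32 complex I subunits, 5 complex I assembly factors, 4 complex II subunits, 6 complex III subunits, 14 complex IV subunits and 16 complex V subunits. RefSeq's mouse gene table (GRCm38.p6) held 96 genes that match the rule, none of them on chromosome 14, and those without a probe set of their own were not analysed here.

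The study asked what overexpression of lincU, a long noncoding RNA, does to the transcriptome of mouse embryonic stem cells. Both groups were cells of the 46C line, in which a fluorescent reporter is known to sit at the Sox1 locus, kept on a feeder layer in medium with 15% serum and 1000 U/ml of leukaemia inhibitory factor (LIF). One group was a control and the other overexpressed lincU; the vector, the promoter and the number of clones are not given in the sources used here. Feeder cells were taken away before harvest, and total RNA was copied into biotinylated RNA for Affymetrix expression arrays, 1 per group. With 1 array per group there was no replicate check on any difference below, so each is a description of 2 arrays with no p-value, and their number limits the precision.

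Oxidative phosphorylation is the chain of inner mitochondrial membrane complexes that burns NADH and succinate and makes ATP. Complex I (NADH dehydrogenase) and complex II (succinate dehydrogenase) pass electrons through ubiquinone to complex III (the cytochrome bc1 complex), from there through cytochrome c to complex IV (cytochrome c oxidase), and the protons pumped on the way drive complex V, the ATP synthase. Most subunits are encoded in the nucleus and made in the cytosol, while a few core subunits come from mitochondrial DNA and fall outside the name rule. Naive embryonic stem cells are known to use both glycolysis and respiration.

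Values are the deposited log2 signals, and a difference is the signal of the overexpression array minus that of the control array. A gene with several probe sets was represented by the one of highest mean signal. For the differences, each array had a floor at its 25th percentile, 5.73 in control and 5.65 in overexpression, to which lower values were raised. A gene was called bright if its signal reached the array's median (7.96 in control, 7.90 in overexpression) on the array where it was higher. Of the 77 genes, 74 were bright. The other 3, Ndufa10, Cox4i2 and Cox6a2, were dim and enter no count.

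The oxidative phosphorylation genes gave high signals on both arrays. Of the 77, 67 (87.0%) were at or above the 75th percentile of the probe sets on both arrays, against 26.4% of all genes off chromosome 14, and 59 (76.6%) were at or above the 90th, against 10.5%. All 6 complex III and all 16 complex V genes were above the 90th percentile, as were 26 of 32 complex I subunits and 10 of 14 complex IV subunits, but 1 of 4 complex II genes and none of the 5 assembly factors. A signal depends on the probes as well as on the transcript, so these ranks do not order the genes by RNA abundance. In bulk RNA, a change in how many cells carry a transcript and a change in RNA per cell cannot be told apart.

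Most of these genes were slightly higher on the overexpression array. Of 74 bright genes, 64 (86.5%) were higher and 10 were lower, where 50.8% of all 5402 bright genes off chromosome 14 were higher and 49.2% lower. The median difference was 0.16 on the log2 scale, against 0.01 for all bright genes, and the range was -0.28 to 0.62. The differences were small: 13 genes (17.6%) were higher by a ratio of at least 5 to 4 and none was lower by that ratio, where 12.1% and 15.6% of all bright genes were. Only Ndufa9 was at least 1.5-fold higher (1.35% of the members, against 3.76% of all bright genes), and none was 1.5-fold lower (5.63%). None reached 2-fold in either direction, as 0.87% of all bright genes did upward and 1.15% downward. The members therefore differed from all bright genes in how many lay above 0, while their share past 1.5-fold was below that of all bright genes. Those genes were dimmer, with a median control signal of 10.12 against 12.43 for the members. The 1.5-fold share among genes of like signal was not taken.

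The size of that excess depended on how the 2 arrays were scaled. With each array centred on its median, 69 members were higher and 5 lower. The median of all bright genes itself shifted to 0.06, and 58.6% of them were higher. After quantile normalization 54 members (73.0%) were higher, 18 lower and 2 equal, against 49.6% of all bright genes higher. After subtraction of a loess trend 58 members (78.4%) were higher and 16 lower, against 50.5% of all bright genes higher. The members' median was 0.21, 0.11 and 0.12 in turn. Over the deposited scale and these 3 scalings, 53 members were higher in each and 5 were lower in each (Ndufs4, Ndufa13, Ndufv2, Sdhd and Atp5md). The other 16 had a sign that depended on the scaling. The share of all bright genes that kept the same sign throughout was not counted.

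**Figure D1:**
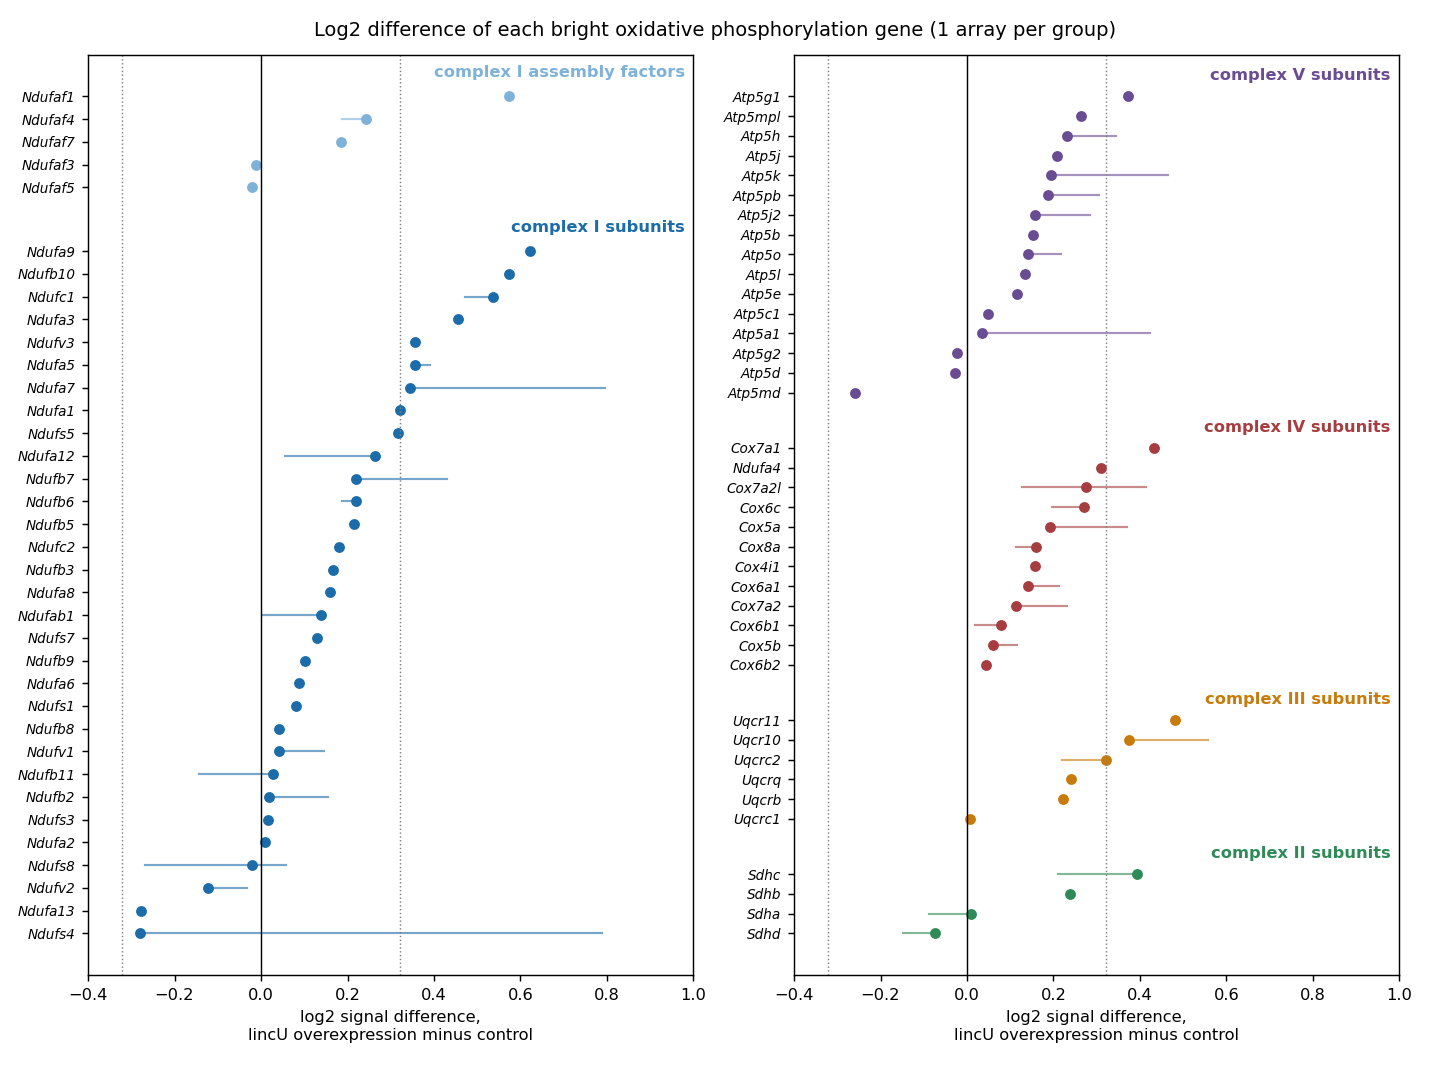
Log2 signal difference, lincU overexpression minus control, of each of the 74 bright oxidative phosphorylation genes, grouped by complex (x axis, log2 units; 1 array per group). Points are the probe set of highest mean signal, horizontal lines span the lowest to the highest of a gene's bright probe sets, and dotted lines mark a ratio of 5 to 4 either way; 64 points lie right of 0 and 10 left, and 13 lie right of the upper dotted line.

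Because bright probe sets tended to be a little higher on the overexpression array, the members were also set beside other genes of like signal. Among other bright genes off chromosome 14, the median difference went from -0.08 at a mean log2 signal of 8 to 9 to 0.04 at 13 and over. At a mean signal of 11 and over, 59 of 66 members (89.4%) were higher with a median of 0.16, and 979 of 1678 other genes (58.3%) were higher with a median of 0.03. In the same range 11 members (16.7%) and 6.79% of the other genes were higher by at least the 5 to 4 ratio. From 12 to 13, 28 of 34 members (82.4%) and 58.1% of 530 other genes were higher. At 13 and over, all 21 members and 66.8% of the 340 other genes were higher on the deposited scale. Of those members, Atp5a1, Atp5c1, Cox5b and Cox6b1 were lower after quantile normalization. At 11 and over, the standard deviation across genes was 0.17 for the members and 0.23 for the other genes.

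**Figure D2:**
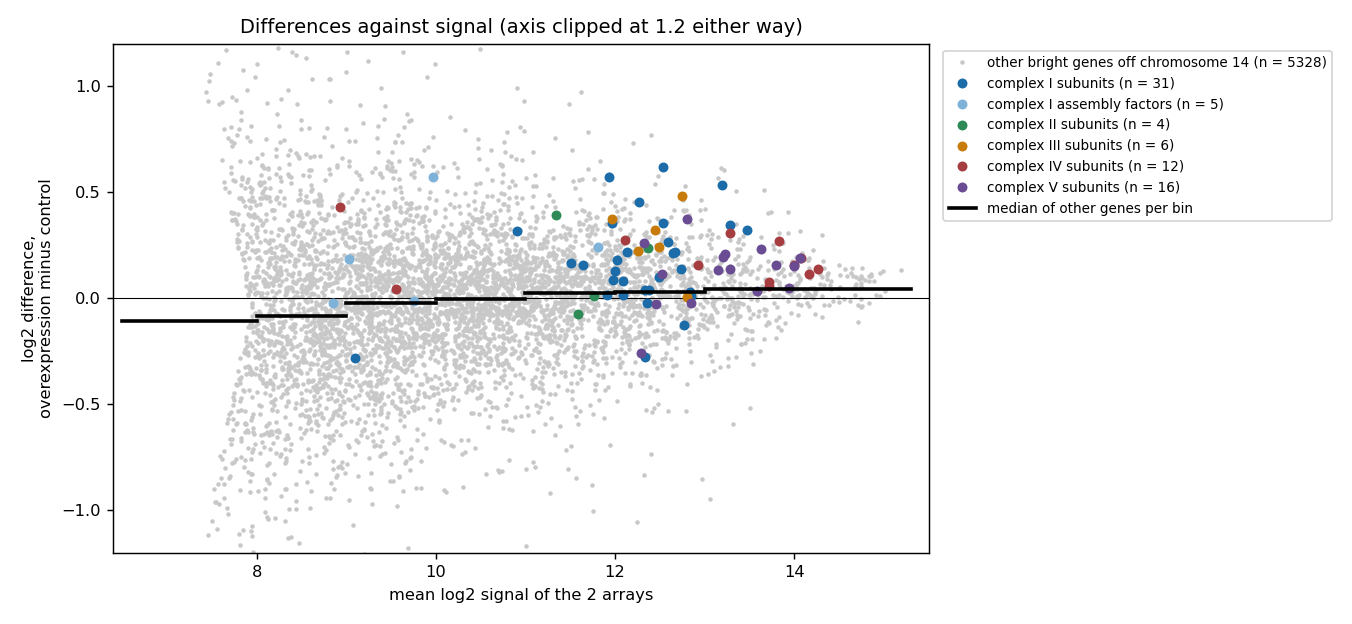
Log2 difference, overexpression minus control (y axis, clipped at 1.2 either way, which leaves 64 genes outside), against the mean log2 signal of the 2 arrays (x axis). Grey points are the 5328 other bright genes off chromosome 14, black bars are their medians per bin of signal, and coloured points are the 74 members by complex; at a signal of 11 and over 59 of 66 members lie above 0.

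Where a gene had several probe sets, these give a measure of the error between probes, though none of the spread between cultures. Over 34 members with 75 bright probe sets among them, the standard deviation within a gene was 0.16, against 0.23 over 1668 genes off chromosome 14. All bright probe sets were higher for 28 of the 34, all lower for 2 and of mixed sign for 4. By comparison, 543 of the 1668 genes were higher throughout, 469 were lower throughout and 656 were mixed. Of the 74 members, 39 differed from 0 by more than the 0.16, 36 of them upward. The same share of all bright genes was not counted. Across genes, the standard deviation of the differences was 0.18 for the members and 0.37 for the other bright genes. At a mean signal of 11 and over these values were 0.17 and 0.23, so the gap was smaller among genes of like signal. Agreement between probe sets was not counted among genes of like signal. Counted by probe set, 100 of 115 bright member probe sets were higher. For this count and the next, the share over all probe sets was not taken. By gene, 50.8% of all bright genes were higher, and 58.3% of other bright genes at a mean signal of 11 and over. A further 6 probe sets that read a subunit gene together with a near copy of it, and that were left out of the counts, were all higher: Ndufs5 with its pseudogene at 0.35, Ndufb4 with its copies at 0.38 and 0.40, Ndufa11 with Ndufa11b at 0.20, Ndufs6 with Ndufs6b at 0.29 and Ndufab1 with its pseudogene at 0.08. Copies that share reads in this way cannot be told apart.

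The genes lay on 19 chromosomes, and on the deposited scale the members' median was above 0 on 19 of the 19. The same count was not taken for all bright genes or for genes of like signal, so it has no background to be set against. Some chromosomes held few members, 1 on chromosome 12 and 2 on chromosome 18. The medians of chromosomes 13 and 18 were 0.01 and 0.02. After quantile normalization both chromosome 18 genes, Atp5a1 and Ndufa2, were at -0.02. In a stretch of distal chromosome 6, from Rad18 to Resf1, 81 of 97 bright genes were higher on the overexpression array, with a median of 0.37. The stretch was added later, with earlier results of these data known, so its count is a description and no separate evidence of a block. Ndufa9 was the only member inside it and had the direction of most genes there. Without the stretch no member reached 1.5-fold.

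Complex I is an L-shaped enzyme: a matrix arm binds NADH and carries electrons to ubiquinone, and a membrane arm pumps protons. Of 31 bright subunits, 27 were higher and 4 lower, with a median of 0.16. The nuclear core subunits hold the flavin and iron-sulfur clusters of the matrix arm. The median of the 6 described here was 0.03, and 4 were higher and 2 lower. Ndufs7, next to the ubiquinone site, went from 11.94 to 12.07 and Ndufs1, the largest iron-sulfur subunit, from 12.05 to 12.13. Ndufv1, which carries the flavin and the NADH site, was at 12.31 in control and 12.35 in overexpression, and Ndufs3 was at 12.08 and 12.10. Ndufs8 was at 12.37 and 12.35, with 5 bright probe sets from -0.27 to 0.06, and Ndufv2, beside Ndufv1, was at 12.83 and 12.70. The core differences thus ran from -0.12 to 0.13, inside the 0.16 found between probe sets of a gene. The signs of Ndufv1, Ndufs3 and Ndufs8 depended on the scaling.

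The supernumerary subunits of complex I, which surround the core and are needed to build and hold it, lay higher than the core. Of 25 bright ones, 23 were higher and 2 lower, with a median of 0.21. Under the other 3 scalings the supernumerary median was 0.27, 0.18 and 0.18, and the core median 0.08, -0.01 and 0.00, in the order centring, quantile and loess. No test of the difference between core and supernumerary subunits was possible with 1 array per group. By position, the 18 bright subunits of the membrane arm and its junction had a median of 0.20 with 17 higher, the 9 of the NADH-binding module 0.08 with 7 higher, and the 4 of the ubiquinone module 0.07 with 3 higher.

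The highest complex I genes belong to the membrane arm or its junction with the matrix arm. Ndufa9, on chromosome 6, which holds the junction of the arms together, went from 12.22 to 12.85, a difference of 0.62 or 1.54-fold. Ndufb10, on chromosome 17, a subunit of the distal membrane arm, went from 11.65 to 12.22 (1.49-fold). Ndufc1, a small membrane-arm subunit on chromosome 3, went from 12.93 to 13.46 (1.45-fold), with its other bright probe set at 0.47. Ndufa3, another small membrane subunit, went from 12.04 to 12.49 (1.37-fold). Each of these kept a difference of at least 0.41 under each of the 10 or 11 settings of scaling, floor, brightness and probe set choice in which it was measured. The matrix-arm subunits Ndufv3, Ndufa5 and Ndufa7 followed at 0.36, 0.36 and 0.34, and the 3 bright probe sets of Ndufa7 ran from 0.34 to 0.80. Ndufa1 and Ndufs5, both of the membrane arm, were next at 0.32 each, just short of the 5 to 4 ratio.

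At the other end were Ndufa13 and Ndufs4. Ndufa13, a membrane-anchored subunit near the ubiquinone site, went from 12.47 to 12.19, a difference of -0.28 on its only bright probe set. Ndufs4, a matrix-arm subunit whose loss in mice is a model of Leigh syndrome, read -0.28 on 1 bright probe set (9.24 and 8.96) and 0.79 on the other (7.47 and 8.26), so its direction was not settled. Ndufa10 was dim, at 6.04 in control and 6.69 in overexpression.

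Assembly factors build complex I and leave it when it is complete. Ndufaf1, on chromosome 2, which joins the membrane arm intermediates, went from 9.69 to 10.26, a difference of 0.57 or 1.49-fold. Ndufaf4 went from 11.69 to 11.93 and Ndufaf7, a mitochondrial methyltransferase, from 8.94 to 9.13. Ndufaf3 was at 9.77 and 9.75 and Ndufaf5 at 8.86 and 8.84, 2 differences whose sign depended on the scaling. The median of the 5 was 0.19 with 3 higher.

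Complex II oxidises succinate in the citric acid cycle and pumps no protons. Its iron-sulfur subunit Sdhb went from 12.25 to 12.49 (0.24), and the membrane anchor Sdhc from 11.15 to 11.54, a 1.31-fold difference, where bright probe sets read 0.21 and 0.39. The flavoprotein Sdha was at 11.76 and 11.77 and the anchor Sdhd at 11.63 and 11.55, with another probe set of each at -0.09 and -0.15, and the sign of Sdha depended on the scaling. Complex II was therefore divided, with 2 genes higher by more than the spread between probe sets and 2 within it.

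Complex III had the highest median of the complexes on the deposited scale, 0.28, and all 6 measured genes were higher. Its small subunits led: Uqcr11 went from 12.51 to 12.99 (1.40-fold) and Uqcr10 from 11.78 to 12.15 (1.30-fold), with the 3 bright probe sets of Uqcr10 between 0.37 and 0.56. Uqcrq, which sits beside cytochrome b, went from 12.37 to 12.61, and Uqcrb, near the ubiquinone site, from 12.15 to 12.37. Of the core proteins, which descend from a processing peptidase, Uqcrc2 went from 12.28 to 12.61 (0.32), while Uqcrc1 was at 12.80 on both arrays, with a sign that depended on the scaling. The Rieske protein gene Uqcrfs1 was not measured here.

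All 12 bright complex IV genes were higher, with a median of 0.16. With centring 12 were higher and the median was 0.21. After quantile normalization 10 were higher and it was 0.09, and after loess 12 were higher and it was 0.10. Most were among the brightest genes of the arrays with small differences. Cox4i1, the regulatory subunit, went from 13.92 to 14.08 and Cox6a1 from 14.20 to 14.34. Cox5a, which binds the catalytic core on the matrix side, went from 13.98 to 14.17, and its bright probe sets reached 0.37. Cox6c went from 13.70 to 13.97 and Ndufa4, named after complex I but a subunit of complex IV, from 13.13 to 13.44. The lowest were Cox6b2 at 0.04, Cox5b at 0.06 and Cox6b1 at 0.08. The signs of Cox5b and Cox6b1 depended on the scaling, and leaving out probe sets that can read several transcripts left Cox5b with 2 dim ones, at -0.61 and 1.10. Cox7a2l, which ties complex III to complex IV in supercomplexes, went from 11.98 to 12.25, with bright probe sets from 0.13 to 0.41.

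Complex IV also has isoforms made mainly in certain tissues, and 4 were measured. Cox7a1, the heart and muscle form, went from 8.71 to 9.15, a 1.35-fold difference on 1 probe set. Cox6b2, the testis form, was at 9.54 and 9.58. Cox4i2, the lung form, was dim at 6.31 and 6.11. Cox6a2, the other heart and muscle form, was dim at 7.23 in control and at 5.46, under the floor, in overexpression, which makes its difference of -1.57 a bound that shrank to -0.27 with the floor at the 40th percentile.

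Complex V joins a catalytic F1 head in the matrix to a rotating ring of c subunits in the membrane, held by a peripheral stalk. Of its 16 genes 13 were higher and 3 lower, with a median of 0.15. With centring the median was 0.20, with 15 higher and 1 lower. Under quantile scaling it was 0.07 and under loess 0.09, each with 11 higher and 5 lower. On the deposited scale the F1 head was nearly level. Atp5b, the catalytic beta subunit, went from 13.92 to 14.08 (0.15) and Atp5e from 12.46 to 12.58. Atp5a1, the alpha subunit, was at 13.57 and 13.61, with a dimmer probe set at 0.42. Atp5c1, the central shaft, was at 13.92 and 13.97, and Atp5d at 12.47 and 12.44. The F1 median was 0.05 on the deposited scale, 0.10 with centring, -0.02 under quantile and -0.01 under loess scaling. Over the settings of scaling, floor, brightness and probe set choice it ran from -0.02 to 0.15. The signs of Atp5a1, Atp5c1 and Atp5d depended on the scaling.

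Outside the F1 head, the 4 stalk genes Atp5h, Atp5j, Atp5pb and Atp5o were all higher on every scaling, with a median of 0.20. Atp5h went from 13.51 to 13.74 and Atp5j from 13.13 to 13.33. The c subunit is made from several genes that encode the same mature protein. Of these, Atp5g1 went from 12.62 to 12.99 (1.29-fold), while Atp5g2 was at 12.86 and 12.84, a sign that depended on the scaling, and Atp5g3 was not measured. Among small membrane subunits, Atp5mpl went from 12.19 to 12.45, but Atp5md, which holds the enzyme's dimers, went from 12.42 to 12.16 (-0.26).

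**Figure D3:**
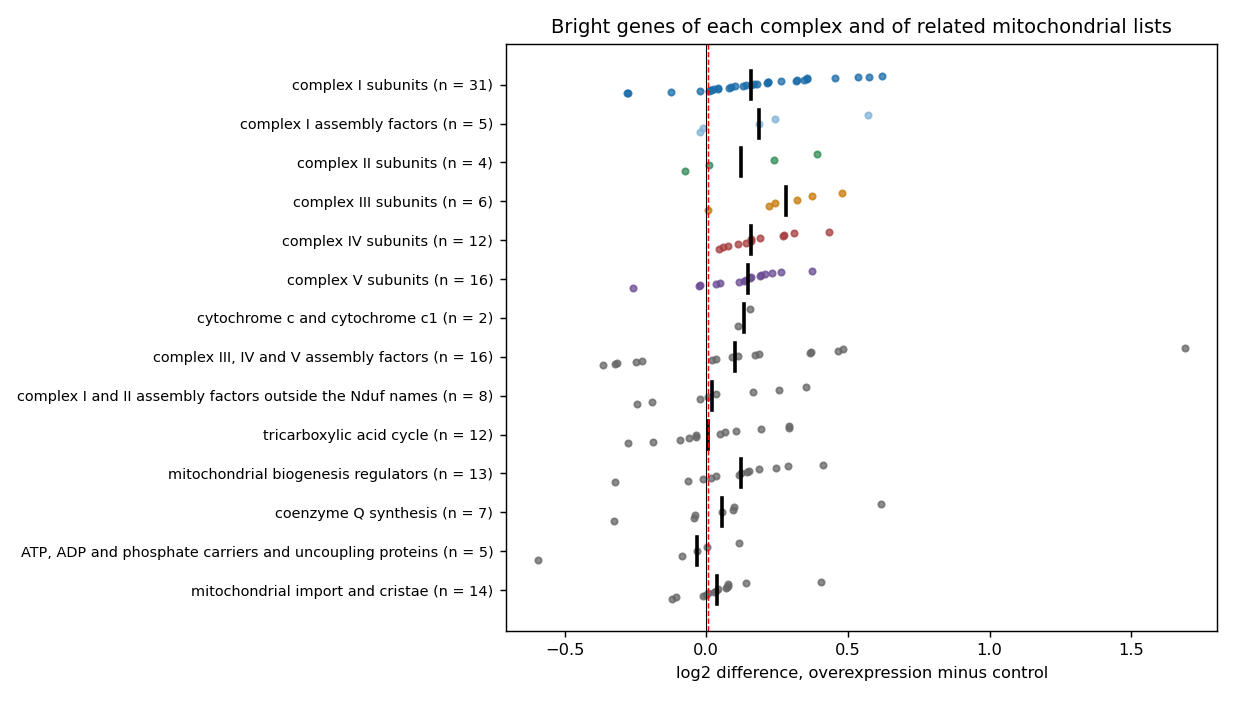
Log2 difference, overexpression minus control, of the bright genes of each complex and of other gene lists (1 point a gene, 1 array per group). Black bars are the medians of each group and the red dashed line is the median of all bright genes off chromosome 14, 0.01; the medians of complexes I to V lie at 0.16, 0.12, 0.28, 0.16 and 0.15.

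Genes that work with the complexes were taken from lists written with earlier results of these data known. Cytochrome c (Cycs), which carries electrons from complex III to complex IV, went from 13.24 to 13.35. Cytochrome c1 (Cyc1), a subunit of complex III that the name rule leaves out, went from 12.86 to 13.01. Of 16 bright assembly factors of complexes III to V, 11 were higher and 5 lower, with a median of 0.10. Cox20, a chaperone of a mitochondrially encoded subunit of complex IV, was far outside the rest, going from 9.33 to 11.02 (3.23-fold) on 1 probe set. Coa7 and Cox17, a copper carrier for complex IV, were higher by 0.48 and 0.47. Of 8 bright assembly factors of complexes I and II outside the Nduf names, 5 were higher and 3 lower, with a median of 0.02, led by Dmac1 at 0.35.

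The citric acid cycle, which feeds electrons to complexes I and II, had no common direction. Of its 12 bright genes 6 were higher and 6 lower, with a median of 0.01. Idh3g was higher by 0.29, citrate synthase (Cs) by 0.29 with another probe set at -0.06, and Suclg2 was lower at -0.27. Of 7 bright coenzyme Q genes, 4 were higher and 3 lower, with a median of 0.06. The largest difference was that of Coq8a, which went from 7.40 to 8.02 (0.62) on 1 bright probe set. Coq5 read -0.33 on 1 probe set and 0.52 on another. Of 14 bright import and cristae genes, 10 were higher and 4 lower, with a median of 0.04, led by Tomm22 at 0.40. In the list of ATP, ADP and phosphate carriers and outer membrane channels, 2 of 5 bright genes were higher and 3 lower, with a median of -0.03. The 3 lower were the inner membrane carriers Slc25a3 (-0.03), Slc25a4 and Slc25a5 (-0.09, with bright probe sets from -0.15 to 0.23), and the 2 higher were the channels Vdac1 (0.11) and Vdac3 (0.00). The ATP and ADP exchanger Slc25a4 went from 13.61 to 13.02, a difference of -0.59, and its bright probe sets ran from -0.81 to -0.59.

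Of 13 bright regulators of mitochondrial biogenesis and mitochondrial gene expression, 10 were higher and 3 lower, with a median of 0.12. Tfb2m, a factor of mitochondrial transcription, went from 10.29 to 10.71 and Slirp, which stabilises mitochondrial messenger RNA, from 12.54 to 12.82. Nrf1, a transcription factor of many respiratory genes, read -0.32, but its bright probe sets ran from -0.67 to 0.62. Tfam, which packages mitochondrial DNA, was higher by 0.12, and the coactivator Ppargc1a was dim at 4.36 and 4.78; these 2 were named after their values were seen.

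Other large families of bright housekeeping genes were also mostly higher. Of 44 cytosolic ribosomal protein genes 37 were higher, with a median of 0.09, and of 56 mitochondrial ribosomal protein genes 44 were higher, with a median of 0.10. The members' median of 0.16 was above both, but the difference between families was not tested.

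Since the members leaned the same way, their promoters were searched for short motifs of factors known to bind respiratory genes. RefSeq promoter windows of GRCm38.p6, running from 250 bases before each annotated start to 50 after it, were matched by symbol for 63 of the 74 bright members (68 promoters). The motifs, on both strands, were GCGCATGCG or GCGCACGCG for NRF1, CCGGAAG for ETS factors such as GABP, AANATGGCG for YY1 and TCAAGGTCA for estrogen-related receptors. Most members above the members' median on each of their bright probe sets had no NRF1, ETS or YY1 match before the start. Ndufb6 and Ndufb7 had an ETS match that is not printed, and Ndufa7 and Atp5j each had another promoter window without a match. A stretch around the match is given for 8 of the members above that median, Ndufa8 only just. They are subunits of complexes I, III and V and 2 complex I assembly factors. The stretches show the NRF1, ETS and YY1 letters in place. Each is read 5′ to 3′ on the gene's strand and lies before the start, with the matched letters in capitals, where CTTCCGG and CGCATGCGC are motifs read on the other strand and GCGCATGCGC holds overlapping NRF1 matches on both. Matches over or after the start, such as the NRF1 letters of Uqcr11 and the YY1 letters of Ndufa9 and Ndufc1, are counted but not printed. In order they lie at chr4:24897930-24898019 on the plus strand (Ndufaf4, NRF1), chr5:108434400-108434489 on the minus strand (Atp5k, NRF1), chr2:36049339-36049387 on the minus strand (Ndufa8, NRF1), chr2:119662835-119662892 on the minus strand (Ndufaf1, ETS), chr10:80406841-80406927 on the minus strand (Uqcr11, ETS), chr11:115419920-115419997 on the minus strand (Atp5h, ETS), chr17:33824587-33824644 on the plus strand (Ndufa7, YY1) and chr16:84834991-84835104 on the minus strand (Atp5j, YY1 then ETS).
Ndufaf4: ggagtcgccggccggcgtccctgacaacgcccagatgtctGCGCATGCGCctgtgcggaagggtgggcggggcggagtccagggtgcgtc
Atp5k: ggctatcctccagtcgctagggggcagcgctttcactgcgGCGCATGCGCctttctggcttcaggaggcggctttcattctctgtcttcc
Ndufa8: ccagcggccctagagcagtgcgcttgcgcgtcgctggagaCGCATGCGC
Ndufaf1: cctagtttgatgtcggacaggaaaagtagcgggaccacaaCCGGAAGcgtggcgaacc
Uqcr11: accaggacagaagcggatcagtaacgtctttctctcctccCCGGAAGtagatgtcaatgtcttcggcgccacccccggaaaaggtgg
Atp5h: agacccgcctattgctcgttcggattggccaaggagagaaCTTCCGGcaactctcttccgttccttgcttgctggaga
Ndufa7: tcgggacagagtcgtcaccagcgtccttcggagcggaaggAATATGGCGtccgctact
Atp5j: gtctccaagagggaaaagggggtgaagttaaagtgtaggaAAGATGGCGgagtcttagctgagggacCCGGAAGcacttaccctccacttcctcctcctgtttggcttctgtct

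The NRF1 letters were in 19.1% of the bright members' promoters, in 8.49% of those of other bright genes off chromosome 14 and in 3.36% of all 32851 promoters. The ETS letters were in 25%, 19.9% and 8.86%, and the YY1 letters in 13.2%, 6.16% and 2.38%. The estrogen-related receptor letters were in the promoter of 1 member, Sdhd (1.47%, against 0.228% and 0.423%). One or more of the NRF1, ETS and YY1 motifs stood in 33 members, and in 48.5% of the bright members' promoters, 30.7% of those of other bright genes and 13.3% of all promoters. The matches did not divide the members by difference. The 13 with the NRF1 letters had a median of 0.13, with 10 higher, and the 50 without had 0.18. The medians with and without the ETS letters were 0.16 and 0.16, and those with and without the YY1 letters 0.16 and 0.16. A match is a description of the letters in this window, not a site of binding.

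No probe set was named lincU, so the level of the overexpressed RNA itself was not analysed here and the group labels were not checked against it. Of 9 embryonic stem cell markers, 8 were measured and all were bright, 5 of them higher and 3 lower, from Utf1 at -0.43 to Esrrb at 0.65. Pou5f1 was at 13.55 in control and 13.34 in overexpression and Zfp42 at 13.78 and 14.09. Nanog, at 12.87 and 13.44, lies in the distal chromosome 6 stretch. Of 14 feeder fibroblast markers 13 were measured and 10 were bright, 6 of them higher and 4 lower, with a median of 0.15, close to the 0.16 of the members, and a range from -0.27 (Acta2) to 0.69 (Pdgfrb). The log2 of their summed signal was 14.05 in control and 14.18 in overexpression, Col3a1 was at 10.31 and 10.27, and no measured marker was at the floor on both arrays. The part of feeder RNA in the members' differences was not tested.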

How the data were processed

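Each probe set had a deposited log2 signal on 1 control and 1 lincU overexpression array. The submitters' processing notes name MAS5 and affy, with no version or role. The sources used here do not give the arrays' scaling target, and the log2 scale was read from the highest values, 15.13 and 15.26. Of 16994 probe sets, 64 were controls, 15273 had a single gene name in the platform annotation, 501 several and 1156 none; 15252 matched the RefSeq table, which updated symbols and gave chromosomes.

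Values were used as deposited, floored and reduced to 1 probe set per gene in Python 3.11.15 with pandas 2.3.3. The counting code was tested on simulated arrays. Members and lists were chosen with earlier results of these data known. Complexes and roles were assigned by hand from general knowledge.

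The genes named were members 1.5-fold or more either way, up to 4 of the highest and 4 of the lowest per complex, the core subunits of complex I, complex II, the catalytic and c-ring subunits of complex V, tissue isoforms, members whose bright probe sets differ in sign by over 0.3, and up to 3 bright genes per other list. Others named were chosen after their values were seen. Alternatives covered scaling, floor, brightness, probe set choice and, added later, the distal chromosome 6 stretch, signal bins, probe sets of several names and the placing of Ndufa4.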

Additional observations from a re-analysis of the deposited data

How the results depend on the processing

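No paired analysis was possible because each group had 1 array; for the same reason no replicate could be left out. All medians of the complexes kept their sign in each setting run. The count of lower members was 5 with centring, 18 with quantile and 16 with loess scaling. The count at least 1.5-fold higher was 4 with centring, 2 with loess, 2 without the brightness rule, 2 without probe sets that can read several transcripts (names ending in _s_at, _x_at or _a_at) and 0 without the distal chromosome 6 stretch. Without the brightness rule, 1 member (Cox6a2, at the floor in overexpression) was lower by the 5 to 4, 1.5-fold and 2-fold thresholds. With brightness at the 75th percentile, the median of the complex I assembly factors was 0.41. Dropping those probe sets, which represent 42 members, left 47 bright members, of which 40 were higher, with medians of 0.010 for complex II and 0.48 for complex III. Neither a complex median nor the difference of Ndufa9 changed sign in any of these settings. Apart from the fewer genes in the settings that drop probe sets or genes, the cause of these moves was not tested. The scanner's files and detection calls were not part of the values used, so how far a dim signal stood above background is not known.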
